A study of Homo sapiens with 4 samples.

Results

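The genes described here are the LINC genes expressed by MIA-PaCa2, an established human line from a pancreatic carcinoma, compared between untreated cells and cells made resistant to AMG510. A LINC gene was taken as one whose symbol is LINC followed by a digit, the serial name used for long intergenic non-coding RNAs, and it counted as expressed with at least 1 CPM (the expected count scaled by the library total, the usual unit of relative abundance) in at least 2 of the 4 libraries. Members were thus chosen by the measured levels of these same libraries. The rule kept 127 of the 2101 gene IDs with such a symbol, out of 57773 IDs in all. Of the others 1528 had 0 counts in every library and 446 had counts below the rule. The nearest member inside the threshold was LINC02076, with a second-highest value of 1.03 CPM, and the nearest gene outside it was LINC01970, with 0.998 CPM. AMG510 (sotorasib) is a covalent small-molecule cancer drug. The resistant cells had been kept in rising concentrations of the drug over 2 months, to 5 µM at the end, and the labels do not say whether drug was present when RNA was taken. Untreated cells received none, and both groups were grown in the same serum-containing medium. Each group held 2 libraries of polyadenylated RNA. For resistant replicate 2 the treatment field gives AMG511 while the title gives AMG510, and it was kept as resistant.

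Long intergenic non-coding RNAs are transcribed from their own promoters between protein-coding genes, and most are spliced, capped and polyadenylated as messenger RNAs are. Most are present at low levels, many stay in the nucleus, and many are removed quickly by the nuclear RNA exosome. Some act on the transcription of neighbouring genes and some act elsewhere in the cell, while for most of them no function is known. The LINC number is a serial name and does not group genes by function.

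Library totals lay between 30146559 and 38052558 expected counts, so that 3 counts, the limit a count of 0 allows, corresponded to 0.0788 to 0.0995 CPM. This limit and the intervals given below cover counting error only. The keratin genes KRT8 and KRT18 and the vimentin gene VIM, which this line expresses, were all present, at 920.3 CPM or more in every library. CDKN2A, which the line has lost, had 0 counts throughout, and PTPRC of blood cells stayed at or below 0.140 CPM. The labels do not say whether replicates were cultured separately, so the p-values rest on library-to-library spread that may be technical.

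One gene held most of the LINC signal in resistant cells. LINC02154, on the X chromosome (ENSG00000235385), had 243 and 278 CPM in the untreated libraries and 1459 and 1005 CPM in the resistant ones. All its resistant values were above all its untreated values. It rose 4.85-fold (log2 fold change 2.28, SE 0.22, adjusted p = 7.67e-05), and between 1.95 and 2.55 in log2 with any 1 library left out. Per kilobase of annotated exon it had 156 and 179 CPM in untreated and 937 and 645 CPM in resistant libraries. The next member on that scale, LINC00847, had 5.46 to 9.04 CPM per kilobase, a range far below that of LINC02154. The 127 members together summed to 779 and 965 CPM in untreated and to 2106 and 1759 CPM in resistant libraries. LINC02154 was 31.2% and 28.8% of that sum in the untreated libraries, and 69.3% and 57.1% in the resistant ones. Without it the sums were 536 and 687 CPM against 646 and 754 CPM, and these groups overlapped. In bulk RNA, a change in the share of cells that express a gene cannot be told apart from a change per cell.

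**Figure D1:**
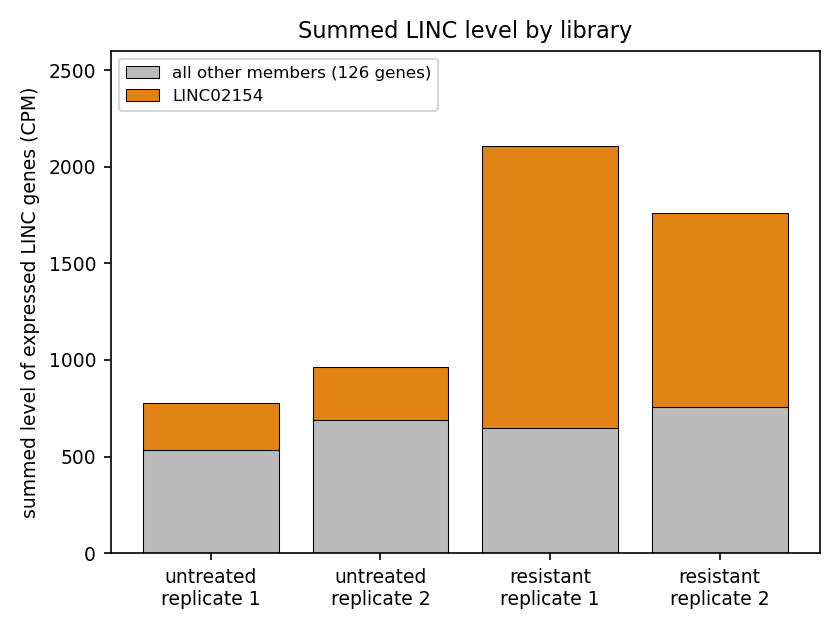
Summed level of the expressed LINC genes in each library, in CPM, with LINC02154 in orange and all other members in grey. The orange part is 243 and 278 CPM in the untreated bars and 1459 and 1005 CPM in the resistant ones, while the grey parts lie between 536 and 754 CPM.

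The comparison of resistant with untreated libraries asks which LINC genes differ in cells selected in the drug. Of the 127 members 24 rose, 14 fell and 89 did not pass at an adjusted p below 0.05 (edgeR's quasi-likelihood test), so that 29.9% were called. Among all 16090 tested genes 34.0% were called, 16.6% higher and 17.4% lower. Among genes that meet the same level rule it was 36.6%, and among the protein-coding ones of these 38.7%. Among protein-coding genes that also have mean levels in the range of the members (between their 10th and 90th percentile) the share was 31.6%. These coding genes of like level share the range only, with a median mean level of 4.84 CPM against 2.76 CPM for members. A change of at least 2-fold with a call was found for 34 members (26.8%), and for 27.7% of those coding genes and 17.3% of all tested genes. The median log2 fold change of the members was 0.27, and it was the same with LINC02474, the member without untreated counts, set to its lower bound. It was −0.01 over all tested genes and 0.01 over the coding genes of like level. Values of the groups did not overlap in 90 members (57 higher, 33 lower), or 70.9%. Of all tested genes 70.0% did not overlap (32.5% higher, 37.5% lower), and of the coding genes of like level 65.6%. These shares are descriptions, since 18 members met the level rule in the resistant libraries alone and 6 in the untreated ones alone, and had to differ. Of those 18, 12 were called higher, among them LINC02474, LINC01733, LINC02902, LINC03060, LINC02615 and LINC02614. Of those 6, 5 were called lower, namely LINC02683, LINC01571, LINC00941, LINC01844 and LINC02206. Among the 74 members at 1 CPM or more in all 4 libraries, 7 rose, 6 fell and 61 did not pass.

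Untreated replicate 1 bore most on these counts. Its CPM was below that of untreated replicate 2 in 104 of the 127 members (81.9%), with a median log2 difference of 0.37. Coding genes of like level had the same order in 77.4% of cases, with a median difference of 0.33. All tested genes had it in 63.6%, with a median difference of 0.11. Resistant replicate 1 was below replicate 2 in 89 members (70.1%). Without untreated replicate 1, 13 members were called higher and 8 lower, and the median log2 fold change was 0.18. Without resistant replicate 1, 8 were called lower.

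**Figure D2:**
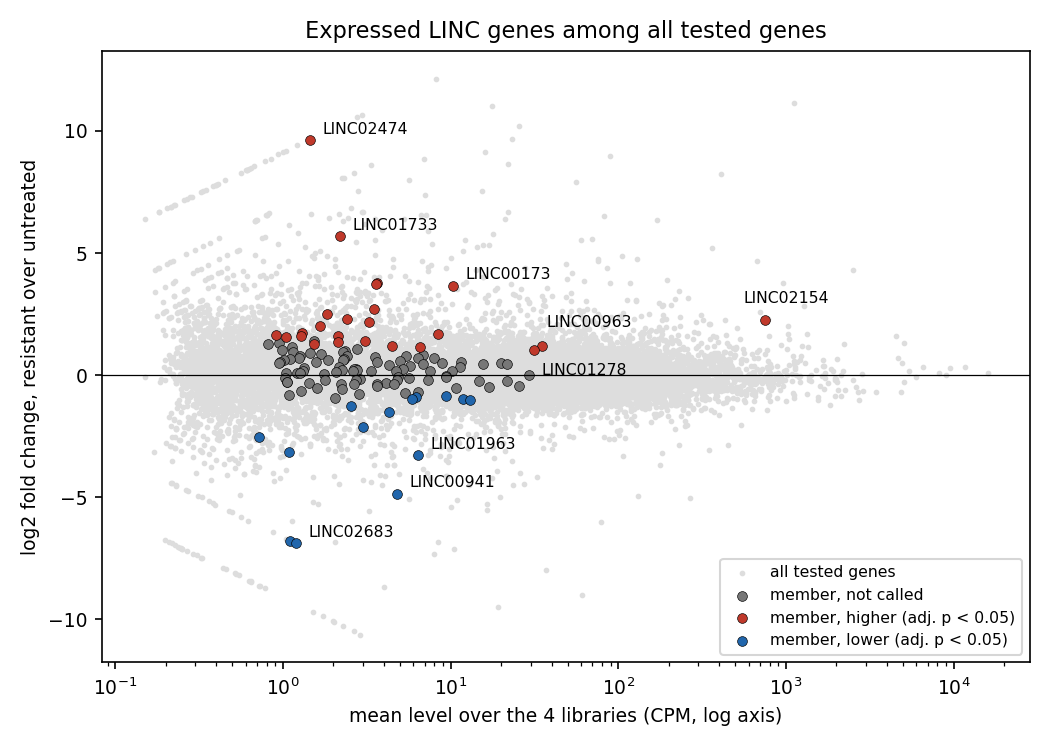
Log2 fold change (resistant over untreated) against the mean level over the 4 libraries in CPM (log axis), with members in red (called higher), blue (called lower) or dark grey (not called) and all 16090 tested genes in light grey. The 24 red and 14 blue points lie on both sides of 0 across the range of member levels, LINC02154 stands alone at 746 CPM, and the height of LINC02474, with 0 untreated counts, depends on the prior count of the fit.

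LINC02474, on chromosome 1, had 0 CPM in both untreated libraries and 1.16 and 4.63 CPM in the resistant ones. Its 188 resistant counts against none make it at least 73.2-fold higher, taken against 3 counts over the untreated group (adjusted p = 0.00183). The resistant values themselves lay 3.98-fold apart, with replicate 2 the higher one. LINC01733, on chromosome 20, rose from 0.0263 and 0.140 CPM to 4.61 and 3.93 CPM (log2 fold change 5.68, SE 0.63, adjusted p = 1.57e-04). That change was 5.00 without untreated replicate 1 and 7.12 without untreated replicate 2. Both untreated values were near the limit of detection.

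A pair of neighbouring genes on chromosome 7, between the coding genes TNS3 and PKD1L1, rose together. LINC02902 rose from 0.368 and 0.643 CPM to 8.16 and 5.41 CPM (log2 fold change 3.78, SE 0.45, adjusted p = 2.43e-04). LINC01447 rose from 0.578 and 1.31 CPM to 5.57 and 6.53 CPM (2.71, SE 0.43, adjusted p = 0.00129), and by 3.34 without untreated replicate 2. TNS3, which encodes a focal adhesion protein, did not pass (0.26, adjusted p = 0.239). LINC00525, whose nearest coding gene is PKD1L1, did not pass either (0.72, adjusted p = 0.237), with 3.92 and 5.76 CPM in untreated and 4.15 and 11.6 CPM in resistant libraries.

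LINC03060, also on chromosome 7, had 0.420 and 0.587 CPM untreated and 6.004 and 7.38 CPM resistant (log2 fold change 3.75, SE 0.40, adjusted p = 1.33e-04). LINC00173, on chromosome 12, rose from 0.578 and 2.55 CPM to 15.7 and 22.6 CPM (3.67, SE 0.60, adjusted p = 0.00556). Its untreated libraries differed from each other more than its resistant ones did, and its change was 3.01 without untreated replicate 1 and 5.00 without untreated replicate 2. LINC02615 on chromosome 4 rose by 2.49 (SE 0.45, adjusted p = 0.00238) and LINC02614 on chromosome 3 by 2.30 (SE 0.40, adjusted p = 0.00209), each with both resistant libraries at 2.96 CPM or more and both untreated ones at 0.867 CPM or less. LINC01572, on chromosome 16, rose by 2.17 (SE 0.47, adjusted p = 0.00597). LINC02035, on chromosome 3, rose from 3.10 and 4.95 CPM to 14.96 and 10.5 CPM (1.70, SE 0.32, adjusted p = 0.00295).

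Beside LINC02154, the members above 20 CPM that rose were LINC00963 and LINC01278. LINC00963, first described in prostate cancer, had 14.2 and 29.5 CPM in untreated libraries against 46.5 and 50.03 CPM in resistant ones (log2 fold change 1.18, SE 0.28, adjusted p = 0.0131). It was 0.81 without untreated replicate 1 and 1.72 without untreated replicate 2, and it was called in both cases. LINC01278, on the X chromosome, rose from 18.7 and 23.3 CPM to 35.9 and 47.1 CPM (1.01, SE 0.19, adjusted p = 0.00302). It overlaps SPIN4, a chromatin reader gene that did not pass (−0.46, adjusted p = 0.116), and the strand setting of the counting is not known.

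The remaining 11 risers had the least stable calls. They were LINC00685, LINC01303, LINC00886, LINC02593, LINC03033, LINC02256, LINC03011, LINC00896, LINC01659, LINC00663 and LINC02577. Each was lost without untreated replicate 1, and the largest adjusted p with 1 library left out lay between 0.0502 (LINC00685) and 0.358 (LINC02577, without resistant replicate 2). LINC02577 had 3.63 and 4.59 CPM untreated against 5.74 and 12.2 CPM resistant, with a log2 fold change of 1.14 that was 0.56 without resistant replicate 2. LINC01303 and LINC03033 overlap each other on chromosome 14, so that their reads may not be separable. LINC02256 overlaps WHAMMP1 and lies among copies of the GOLGA8 family, which makes its value uncertain. The other risers, LINC02154 included, kept their calls with each library left out in turn. Several of them, such as LINC02474 and LINC01733, met the level rule in the resistant libraries alone. These had to differ, so their calls are descriptions.

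**Figure D3:**
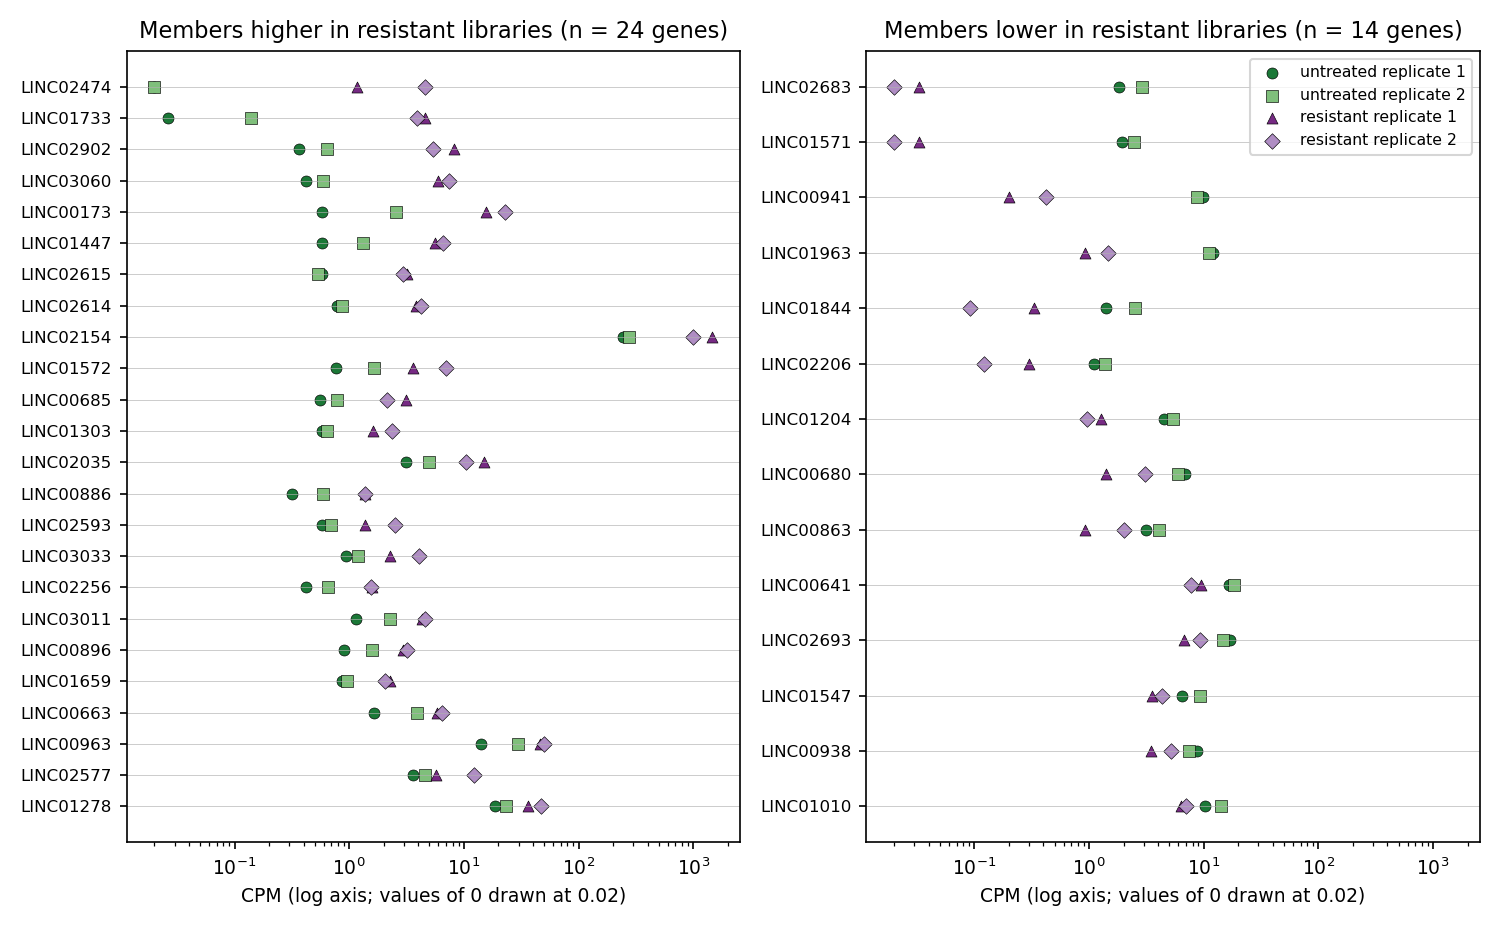
CPM in each library (log axis, 0 drawn at 0.02) for the 24 members called higher and the 14 called lower, ordered by the size of the change, with circles and squares for the untreated and triangles and diamonds for the resistant libraries. In each of the 38 genes the groups do not overlap, which selection by the call favours. The same holds for 70.0% of all tested genes.

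Among the members that fell, LINC00941 changed with the smallest adjusted p of all members. LINC00941, on chromosome 12 and studied as a raised transcript in gastrointestinal cancers, had 9.78 and 8.76 CPM in untreated libraries and was left with 0.199 and 0.423 CPM in resistant ones (log2 fold change −4.85, SE 0.44, adjusted p = 3.88e-05). Its untreated values, from 372 and 313 counts, lay close together. Its resistant values lay further apart but rest on only 6 and 14 counts. With 1 library left out the change of LINC00941 ran from −5.45, in the fit lacking resistant replicate 2, to −4.45. LINC01963, on chromosome 2, fell from 12.2 and 11.2 CPM to 0.929 and 1.45 CPM (−3.27, SE 0.34, adjusted p = 1.09e-04). It was the most abundant of the members that fell more than 4-fold.

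LINC02683 on chromosome 11 and LINC01571 on chromosome 16 were all but undetected in resistant cells. LINC02683 had 1.84 and 2.88 CPM in the untreated libraries and 0.0332 and 0 CPM in the resistant ones. Its 173 untreated counts against 1 resistant count gave a ratio of 148, with an exact 95% counting interval of 26.2 to 5887 (adjusted p = 3.16e-04). LINC01571 had 1.92 and 2.46 CPM against 0.0332 and 0 CPM, a ratio of 138 from 161 counts and 1 count (interval 24.4 to 5481, adjusted p = 3.21e-04). In both genes the single resistant count came from replicate 1, and resistant replicate 2 had none.

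LINC01844, on chromosome 5, fell from 1.39 and 2.52 CPM to 0.332 and 0.0907 CPM (log2 fold change −3.16, SE 0.67, adjusted p = 0.00523). Leaving out resistant replicate 1 gave −4.36, and leaving out resistant replicate 2 gave −2.46. LINC01844 met the level rule in the untreated libraries alone, as did LINC00941, LINC02683, LINC01571 and LINC02206. Those members had to differ, so their calls are descriptions. LINC01204, on the X chromosome, fell from 4.52 and 5.34 CPM to 1.26 and 0.967 CPM (−2.11, SE 0.39, adjusted p = 0.00268). LINC00641, on chromosome 14, fell from 16.8 and 18.4 CPM to 9.42 and 7.80 CPM (−1.001, SE 0.24, adjusted p = 0.00906). These 3 were called with each library left out. LINC02206 (−2.52, SE 0.63, adjusted p = 0.0119) lost its call when resistant replicate 2 was left out (−1.97, adjusted p = 0.0708), and leaving out resistant replicate 1 gave −3.31.

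Smaller falls were seen in LINC00680, LINC00863, LINC02693, LINC01547, LINC00938 and LINC01010, with log2 fold changes from −1.51 to −0.84. Each lost its call with at least 1 library left out, at adjusted p values of up to 0.266, reached by LINC00938 without untreated replicate 1. Without resistant replicate 2 the fall of LINC00680 was −2.13 and that of LINC00863 −1.89. LINC00680 is classed as a transcribed pseudogene and LINC02693 as protein-coding in GENCODE 29, and LINC00863 overlaps NUTM2D, so the counting may not assign their reads to them alone.

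The starts of 5 called members are shown to set beside the values above; they have the smallest adjusted p among the named members that RefSeq's promoter table lists. Each runs 5′ to 3′ from 250 bases before to 50 bases after the RefSeq start on the gene's strand (GRCh38.p14), and capitals mark a match to any of 4 motifs searched on both strands. LINC00941 fell, and its start lies at chr12:30795431-30795730 on the plus strand. LINC02902 rose (chr7:47654994-47655293, plus strand). LINC02683 fell (chr11:13924814-13925113, minus strand). LINC01571 fell (chr16:51762269-51762568, plus strand), and LINC02615 rose (chr4:128427766-128428065, plus strand).
LINC00941: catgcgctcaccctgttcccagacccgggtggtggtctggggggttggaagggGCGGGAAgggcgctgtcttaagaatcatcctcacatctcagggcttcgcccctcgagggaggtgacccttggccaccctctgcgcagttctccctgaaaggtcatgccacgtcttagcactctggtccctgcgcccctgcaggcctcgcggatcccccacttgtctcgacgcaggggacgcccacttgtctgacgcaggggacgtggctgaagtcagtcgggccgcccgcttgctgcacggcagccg
LINC02902: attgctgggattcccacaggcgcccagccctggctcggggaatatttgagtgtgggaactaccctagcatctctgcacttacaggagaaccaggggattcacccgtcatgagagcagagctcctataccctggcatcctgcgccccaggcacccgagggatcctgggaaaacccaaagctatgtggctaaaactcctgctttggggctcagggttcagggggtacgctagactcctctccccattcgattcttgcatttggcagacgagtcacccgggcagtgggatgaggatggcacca
LINC02683: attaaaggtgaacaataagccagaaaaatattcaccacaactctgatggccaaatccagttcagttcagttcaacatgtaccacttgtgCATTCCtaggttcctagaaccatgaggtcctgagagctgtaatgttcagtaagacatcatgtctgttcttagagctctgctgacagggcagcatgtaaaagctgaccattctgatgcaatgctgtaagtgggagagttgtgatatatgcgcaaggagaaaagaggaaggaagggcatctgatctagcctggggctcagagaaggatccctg
LINC01571: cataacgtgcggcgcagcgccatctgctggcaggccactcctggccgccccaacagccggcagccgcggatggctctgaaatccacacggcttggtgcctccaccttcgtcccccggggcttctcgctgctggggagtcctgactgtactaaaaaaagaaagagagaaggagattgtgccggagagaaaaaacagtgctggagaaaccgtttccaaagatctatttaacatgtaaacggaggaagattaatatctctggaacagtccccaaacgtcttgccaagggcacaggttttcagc
LINC02615: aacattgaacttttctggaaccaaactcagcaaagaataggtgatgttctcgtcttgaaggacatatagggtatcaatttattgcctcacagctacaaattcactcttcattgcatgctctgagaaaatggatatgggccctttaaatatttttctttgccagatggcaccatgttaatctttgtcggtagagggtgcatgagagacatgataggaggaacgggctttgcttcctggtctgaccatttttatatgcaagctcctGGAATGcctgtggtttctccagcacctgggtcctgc

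The motifs were TGANTCA (AP-1 factors, induced by ERK), GGAATG (TEAD), CCGGAAG (ETS factors) and TTCCCGC (E2F). The window of LINC00941 held 1 match to the E2F letters on the minus strand, within a GC content of 66.0%. Those of LINC02683 and LINC02615, which moved in opposite directions, each held 1 match to the TEAD letters, on the minus and the plus strand. The windows of LINC02902 and LINC01571 held none of the 4. Over all 35116 promoters of the table TGANTCA was found in 7.71%, GGAATG in 14.0%, CCGGAAG in 10.3% and TTCCCGC in 6.55%. Of the 84 members with an entry, 4 held TGANTCA, 5 GGAATG, 14 CCGGAAG and 10 TTCCCGC. Among the 15 risers with an entry these letters were found in 1, 1, 2 and 2 promoters, and among the 9 fallers in 1, 1, 2 and 1. A match describes the letters only.

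Several of the most abundant members did not pass. LINC00649 had 22.5 and 36.2 CPM in untreated libraries, and 27.0 and 31.0 CPM in resistant ones (log2 fold change 0.02, adjusted p = 0.964), with the resistant values inside the untreated range. It overlaps ATP5PO, which encodes a subunit of the mitochondrial ATP synthase. On the log2 scale LINC00667 differed by −0.26 (SE 0.20, adjusted p = 0.339) and LINC01588 by −0.43 (SE 0.19, adjusted p = 0.106). LINC02210 (0.45, adjusted p = 0.135) and LINC02604 (0.49, adjusted p = 0.112) were higher in both resistant libraries without passing. LINC02604 was called without untreated replicate 2 (0.75, adjusted p = 0.0482). Of the 89 members that did not pass, 28 had a fold change within 1.2-fold in either direction, and 6 had at least 2-fold.

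LINC genes with roles described in cancer were looked up whatever their values. Of 24 such symbols 17 were found in the gene name table, and 9 of these were members. Beside LINC00941 and LINC00963, none of them passed. LINC00511, raised in many carcinomas, had 2.55 and 2.85 CPM in untreated libraries, and 1.23 and 1.51 CPM in resistant ones (log2 fold change −0.95, SE 0.41, adjusted p = 0.0953). Its groups did not overlap, and its SE was near the member median of 0.40. LINC00857, studied in lung cancer, had −0.36 (SE 0.35) and LINC00467 had −0.06 (SE 0.32). LINC01089 had 0.53 (SE 0.26), LINC00205 had 0.48 (SE 0.27), LINC00339 had 0.37 (SE 0.30) and LINC00662 had 0.16 (SE 0.28). LINC00261, a neighbour of the endoderm factor gene FOXA2, had 0 counts in all 4 libraries, as did LINC00460 and LINC00958. LINC01133 had 1 count, in resistant replicate 2.

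In GENCODE 29 the members had a median annotated exon length of 2618 bases, in a median of 4 separate exon blocks. Coding genes that meet the same level rule had 5135 bases in 11 blocks. The median mean level was 1.31 CPM per kilobase for members and 6.15 for those coding genes. The SE of the log2 fold change had a median of 0.40 among members and 0.20 among those coding genes. Of the 127 members 98 are classed as lincRNA (19 rose, 10 fell), 13 as processed transcripts (4 rose, 1 fell) and 7 as antisense (1 rose). An expressed gene overlaps 20 members, 5 of them called. Over all chromosomes 18.9% of members rose and 11.0% fell, against 16.6% and 17.4% of all tested genes. Of the 12 members on chromosome 7, 5 rose and none fell, with a median log2 fold change of 0.72. The neighbours LINC02902 and LINC01447 were among these risers. The 587 tested coding genes on chromosome 7 had a median of 0.22. Of the 13 members on chromosome 2, none rose and 1 fell (member median 0.07, coding median −0.12). On chromosome 22, where the coding median was 0.46, 2 of 6 members rose, and on chromosome 5, with a coding median of −0.41, 1 of 5 fell. On chromosome 3, 3 of 5 members rose (member median 1.62, coding median 0.11), and on the X chromosome 3 of 6 rose and 1 fell (0.80 and 0.13). Chromosome 20 held 2 members, 1 of which rose, beside a coding median of −0.36. The chromosomes given here are a selection. The share of coding genes called on each was not counted, and differences between chromosomes were not tested.

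Next to called members, coding genes were often called in the same direction. The nearest protein-coding gene was tested for 31 of the 38 called members. It was called in the same direction in 15 (48.4%), in the opposite direction in 1, and was not called in 15. For called protein-coding genes the nearest coding gene was called in the same direction in 29.7% of 3705 pairs and in the opposite one in 10.3%. By direction it was 42.1% of 19 pairs for risers and 58.3% of 12 for fallers, against 31.2% and 28.4% for coding genes. The sets were not matched for size of change. Of the 38 called members 34 changed at least 2-fold, against 2066 of the 4643 called coding genes that meet the level rule. The pairs called in the same direction include DUSP10 and XRCC5, whose unstable calls are given below. The difference between these shares was not tested.

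AKR1B1, an aldose reductase gene beside LINC03060, rose from 131 and 135 CPM to 2142 and 1418 CPM (log2 fold change 3.77, SE 0.24, adjusted p = 6.90e-06), a log2 change close to that of LINC03060. LINC02474 lies between DUSP10, a phosphatase gene of stress-activated kinases, and HHIPL2. DUSP10 had 1 untreated and 21 resistant counts, 24.5 times as many at equal depth (counting interval 3.94 to 1014), and its call was lost without either untreated library (adjusted p = 0.116 without replicate 2 and 0.0623 without replicate 1). HHIPL2 rose from 0.131 and 0.112 CPM to 6.53 and 8.74 CPM (5.95, SE 0.47, adjusted p = 1.82e-05). LINC00173 lies beside MAP1LC3B2, with 2 untreated and 92 resistant counts. That gene is uncertain, since it is a near-identical copy of the autophagy gene MAP1LC3B.

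CAPRIN2, an RNA-binding protein gene beside LINC00941, fell from 160 and 164 CPM to 19.8 and 31.9 CPM (log2 fold change −2.63, SE 0.21, adjusted p = 2.27e-05). XRCC5, the Ku80 subunit of DNA end joining beside LINC01963, fell by 0.71 in log2 (SE 0.18, adjusted p = 0.0115), a smaller change than that of its neighbour, and its call was lost without untreated replicate 1 (adjusted p = 0.101) or resistant replicate 1 (adjusted p = 0.125). HNRNPC, an RNA-binding protein gene beside LINC00641, fell by 0.82 (SE 0.17, adjusted p = 0.00455). PRIM2, a DNA primase subunit gene beside LINC00680, fell by 1.33 (SE 0.26, adjusted p = 0.00341). The pair with opposite calls was LINC01010, which fell, and SGK1, a serum- and glucocorticoid-induced kinase gene, which rose from 453 and 483 CPM to 907 and 851 CPM (0.94, SE 0.16, adjusted p = 0.00205). ZNF337 beside LINC01733 and SMAD3 beside LINC02206 did not pass (adjusted p = 0.546 and 0.886).

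**Figure D4:**
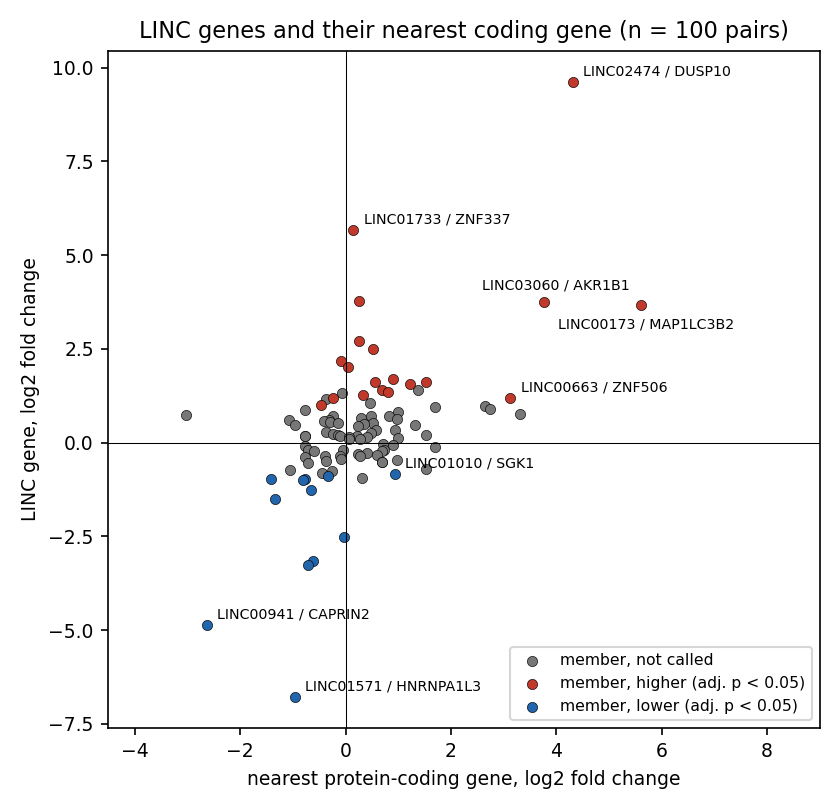
Log2 fold change of each member (vertical) against that of its nearest protein-coding gene (horizontal) for the 100 members whose nearest coding gene was tested, with red for members called higher and blue for members called lower. LINC00941 and CAPRIN2 lie together at the lower left, LINC03060 and AKR1B1 at the upper right, and LINC01733 lies high with a neighbour near 0.

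Some members differed between the resistant libraries, which gives no test, since each is 1 library. The design text names 2 resistant populations, but the labels do not say whether they were cultured separately. Among the 62 members with at least 2 CPM in a resistant library and untreated libraries within 1.5-fold, 13 differed by more than 1.5-fold between the resistant libraries and 5 by more than 2-fold. LINC02474 is not among these, since its untreated libraries without counts give no ratio. Its resistant values lay further apart than those of any member listed here. The same share over all genes was not counted, so these counts say nothing particular to the members. The limit on the untreated libraries also keeps their spread below that of the resistant ones by construction. LINC00525 was 2.79-fold higher in resistant replicate 2, where it reached 11.6 CPM. The others were LINC02980 (2.33-fold), LINC00863 (2.21-fold), LINC00680 (2.19-fold) and LINC02577 (2.12-fold), all likewise higher in replicate 2. For LINC00680 and LINC00863, both resistant values still lay under both untreated ones.

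Factors that process or remove nuclear polyadenylated RNA were mostly lower in resistant cells. Of 29 such genes, all tested, 16 fell, 1 rose and 12 did not pass, with a median log2 fold change of −0.49. Among all tested genes 17.4% were called lower and the median was −0.01. MTREX, the helicase that feeds RNA to the nuclear exosome, fell from 182 and 166 CPM to 54.2 and 71.1 CPM (−1.46, SE 0.18, adjusted p = 2.66e-04). EXOSC4, a subunit of the exosome core, fell from 27.3 and 21.8 CPM to 9.06 and 9.34 CPM (−1.40, SE 0.23, adjusted p = 0.00145). SRRT, which links the cap-binding complex to RNA turnover, fell by 1.198 (SE 0.21, adjusted p = 0.00218). The riser was NCBP2, a cap-binding subunit named after its value was seen (0.57, SE 0.16, adjusted p = 0.0177), and no factor was called higher without untreated replicate 2 or without resistant replicate 1. Without untreated replicate 1, 6 of the 29 were called lower, and without resistant replicate 1, 8 were. Whether these levels bear on those of the members was not tested.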

How the data were processed

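PolyA RNA was sequenced in 2 untreated and 2 resistant libraries, grouped by their titles. Per the file headers, the authors deposited 1 expected count for each gene ID and library; 93.6% of the values were exactly whole. The submitters' processing notes list STAR 2.7.2b, RSEM 1.3.1 and GRCh37 without their roles; the annotation release and strand setting are not given in the sources used here. A gene name table gave symbols for 39538 IDs. Expected counts were rounded, filtered with filterByExpr (16090 genes kept), scaled by TMM (factors 0.962 to 1.05) and tested by quasi-likelihood in edgeR 4.0.16 (R 4.3.3). P-values were adjusted by Benjamini-Hochberg over all tested genes. SE is the log2 fold change over the root of F. CPM use the library total, without TMM. Chromosome, class, exon length and neighbours came from GENCODE 29 by ID; it is of another build (GRCh38), so no coordinates were taken from it.

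Named were up to 15 called members with the largest rise and 15 with the largest fall, the 8 with the highest mean CPM, the members of a list with described roles, 5 that differ between resistant libraries, the nearest coding genes of the first set, and 3 called decay factors. HHIPL2, LINC00847 and NCBP2 were named after their values were seen. Members and lists were chosen with earlier results of these data known. The test was also run on simulated counts with far fewer changed genes than were called in these data, and nothing is drawn from that run here. Alternatives used limma 3.58.1 and DESeq2 1.42.0, other scalings, filters and thresholds, a replicate block and each library left out.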

Additional observations from a re-analysis of the deposited data

How the results depend on the processing

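With 1 library left out, members called higher numbered 13 to 24, members called lower 8 to 12, their median log2 fold change was 0.18 to 0.43, decay factors called were 7 to 13, and all genes called were 2832 (without untreated replicate 1) to 5041. At a threshold of 0.01, the counts were 13 members higher, 7 lower, 8 decay factors and 2832 genes in all. The stricter threshold lowers counts by construction; why the loss differed between the libraries left out was not tested. All other scalings, filters, tests and membership rules listed kept the counts within 1.5 times (members higher 19 to 27, lower 10 to 14).

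The replicate numbers share only a number: deviations of same-numbered libraries had a correlation of −0.06. With the number as a replicate block, 23 members were called higher, 13 lower, 15 decay factors were called, all genes called were 5275, and the member median was 0.33.

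Of the 24 risers 13, and of the 14 fallers 7, were called in each of the 12 refits. Many of the members called in each refit, such as LINC02474, LINC01733, LINC02683 and LINC00941, met the level rule in 1 group alone. Those had to differ, and membership was kept as it was in the refits, so their calls are descriptions. With 1 library left out 25 members changed sign, all of them not called. Among the genes named by the rule, those that changed sign were LINC00649 (−0.22 to 0.32), LINC00467 (−0.17 to 0.062), LINC00525 (−0.15 to 1.27), LINC02980 (−0.51 to 0.64) and the coding neighbours PMFBP1 (−0.23 to 0.11), GTPBP6 (−0.22 to 0.37) and SMAD3 (−0.23 to 0.14); the cause was not tested. At a median member level of 2.76 CPM, the median SE was 0.40 in log2, which limits what changes could be called.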

Other observations

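Of the LINC genes under the level rule, 70 had enough counts for the test. Of these 14 were called higher and 8 lower, or 31.4%, where 34.0% of all tested genes were called, with a median log2 fold change of 0.48; genes this low reach the test mainly through the group where they are higher. LINC00840 had 0 CPM in both untreated libraries but 0.962 and 1.48 CPM in resistant cells. Set against 3 counts for the untreated group, this is at least 30.4-fold higher. LINC02484 had 0 CPM untreated and 0.663 and 0.665 CPM resistant, at least 16.3-fold higher. In the other direction LINC02888 had 0.604 and 0.559 CPM untreated and 0 CPM in both resistant libraries, at least 12.3-fold lower, and LINC02084 was at least 10.3-fold lower. LINC00665, listed for its described roles in cancer, had 0.184 and 0.420 CPM untreated against 1.16 and 0.889 CPM resistant (log2 fold change 1.79, SE 0.61, adjusted p = 0.0418).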
